A study of Xenopus laevis with 6 samples.

Results

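The cytosolic small-subunit ribosomal proteins are the proteins of the 40S subunit, and their transcripts were followed here in Xenopus laevis tadpoles at stage 46, in the optic tectum, which receives the input of the eyes. The members were all genes whose name in the annotation the authors deposited was rps with a number (and an optional a, x or y), rpsa or fau, after the copy suffix was removed. The rule used names and no measured value, and it found 43 of 45099 genes. X. laevis is allotetraploid and keeps many genes as a copy on each subgenome, marked .L for the long and .S for the short chromosomes. The 43 copies made up 23 genes, with 23 L copies and 20 S copies, so 20 genes could be compared as L and S pairs. The other genes, rps7, rps10 and rps20, had an L copy only under these names, although a table of RefSeq gene names for build 10.1 lists an S copy of each of these 3 genes. Of 32 symbols of the usual vertebrate set, 9 had no gene of that name in the annotation (rps2, rps9, rps12, rps14, rps18, rps19, rps24, rps27 and rps28) and were not analysed here.

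The small subunit binds the mRNA, scans for the start codon and holds the decoding centre, where codon and tRNA are matched. Its proteins are made in near equal amounts, and in vertebrates their mRNAs begin with a terminal oligopyrimidine tract, through which mTOR signalling controls their translation together. A few members have a second part or role: rpsa is the laminin receptor precursor, fau is made as a ubiquitin-like protein fused to a ribosomal protein, rps27a is made as ubiquitin fused to a ribosomal protein, and rps6 is the substrate of the S6 kinases. Neural progenitors that divide need a steady supply of new ribosomes, and neurons keep making ribosomal proteins as they grow.

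The study compared 3 libraries of neural progenitor-enriched tectum from animals kept in the dark (NPC) with 3 libraries of immature neuron-enriched tectum from animals exposed to visual stimulation (IN). No transgene, allele or drug is named in the labels for either group. The sources used here give neither how the populations were enriched, nor how many animals went into a library, nor whether libraries came from separate animals. P-values therefore measure the spread between the libraries alone, and that spread may be technical. Population and visual condition coincide in every library and cannot be told apart. In these bulk samples, fewer cells of a type and less RNA per cell cannot be told apart either.

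The libraries held 8422751 to 9914191 reads counted over mRNA. Copies of the 12 progenitor and radial glia markers looked up summed to 1375 to 3321 CPM (reads scaled to a common library size) for NPC and 1879 to 3557 for IN, and copies of the 12 neuron markers summed to 4961 to 8953 and 4478 to 6697, so both lists overlapped between the groups and neither set the groups apart as labelled. The progenitor list was lowest in NPC 1 and highest in IN 3. The neuron list was lowest in IN 1 and highest in NPC 2, so the extremes of both lists ran opposite to the labels. All 18 progenitor and all 20 neuron marker copies were detected. Markers of other tissues were far lower: the erythroid list reached 162 CPM in NPC 2 and at most 20.4 in the other libraries, and the skin list ran from 33.2 in IN 1 to 391 in IN 3. The part of these lists in the results was not tested. In the libraries with number 1, coding reads came to 45.1% of all mRNA reads for NPC and 45.9% for IN. The values were 55.1% and 54.0% with number 2, and 61.0% and 60.9% with number 3.

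Small-subunit transcripts took 1.02% to 1.70% of the reads of a library, 96165 to 166033 reads. Their summed level was 10898, 20131 and 14403.5 CPM in the NPC libraries and 9497, 16844 and 16085 CPM in the IN libraries. Both groups were lowest in the library with number 1 and highest in that with number 2, and the groups overlapped. The means were 15144 ± 4661 CPM for NPC and 14142 ± 4041 CPM for IN (SD, n = 3), a ratio of 0.934 after TMM scaling (edgeR's correction of library size for composition). The difference of -1002 CPM was smaller than either SD, and it took the other sign with upper-quartile scaling (5.87 CPM) and with library totals alone (264 CPM). It also turned on single libraries: it was 1590 CPM without NPC 2 and 1279 CPM without IN 1, but -3213 CPM without NPC 1, -2349 CPM without IN 2 and -1920 CPM without IN 3. The large subunit, whose proteins form the other part of the same ribosome, summed to 15882 ± 5289 CPM for NPC and 14532 ± 4191 for IN. The ratio of small- to large-subunit CPM was 0.967 ± 0.105 for NPC and 0.9745 ± 0.0444 for IN. It was above 1 in NPC 1 and IN 2 and below 1 in the other libraries. A ratio of 1 does not mark balance between the subunits. The sums were not divided by length and ran over 43 small-subunit and 64 large-subunit copies. Of 32 usual small-subunit symbols, 9 were missing from them. Coding reads came to 96.3% to 98.8% of the small-subunit mRNA reads per library, beside 98.1% to 100.7% for the large subunit. Over all genes the values were 45.1% to 61.0%. Coding and mRNA reads were deposited as separate counts, so coding reads can outnumber mRNA reads. For 40 of the 43 copies coding reads came to at least 90% of mRNA reads. The lowest values were 55.4% for rps21.L, 80.7% for rps29.S and 84.3% for rps20.L.

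Transcripts of proteins that sit once in every subunit had unequal counted reads per length. The sources used here do not say how reads with several matches were counted. These levels may therefore leave out more reads for some genes than for others. To compare genes, STAR coding reads were scaled to CPM, divided by the coding length in kb, and the L and S copies were added. For rps7, rps10 and rps20 only the L copy was counted, so their levels may leave out reads of an S copy. On this scale fau had 7449.5, 9650 and 2744 CPM per kb for NPC and 4850, 6944 and 3715 for IN. The level of rps4x, whose human homologue is X-linked with a Y-linked partner, was steadier, with 5827, 5048 and 4897 for NPC and 4251, 7340 and 5008 for IN. These genes stood among the highest, with means of 5892 ± 2584 and 5395 ± 1077 CPM per kb (SD, n = 6), and did not differ beyond their spread. Lower means were those of rps13 at 3726 ± 1390, rps25 at 2774 ± 997 and rps26 at 2358 ± 389. From rps15 at 1744 ± 579 to rps15a at 830 ± 411 the genes formed a shallow slope, with rpsa at 1377 ± 253 and rps6 at 1369 ± 384 side by side.

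**Figure D1:**
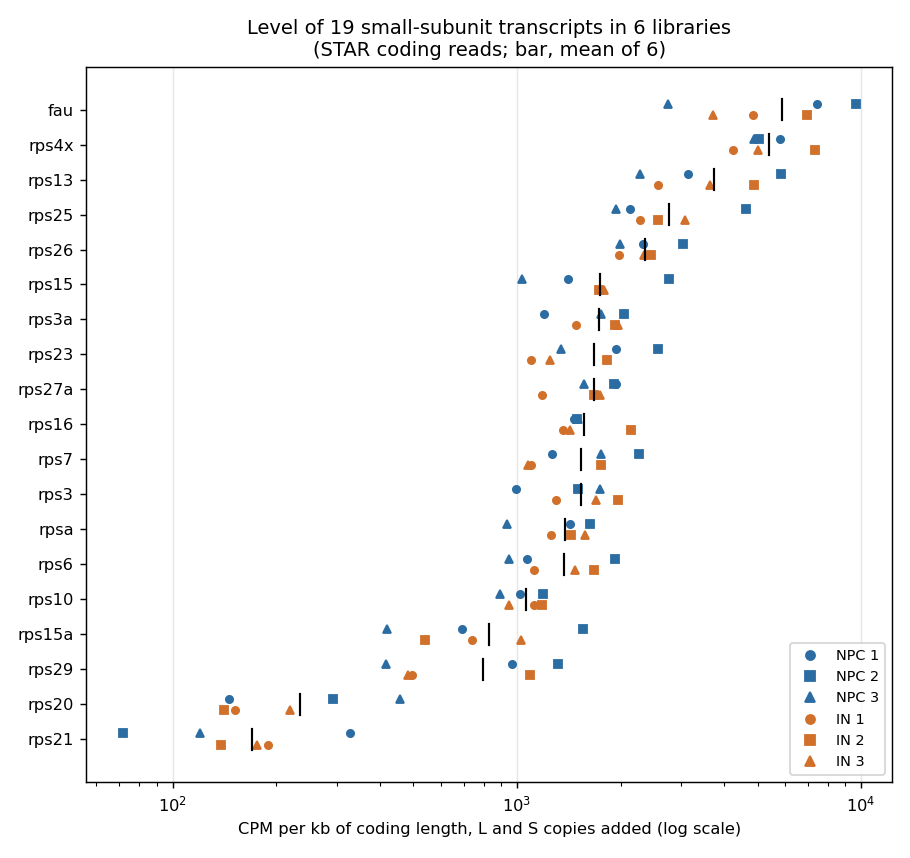
Level of 19 small-subunit genes in CPM per kb of coding length (log scale, L and S copies added), with 1 point per library and a bar at the mean of the 6 libraries. Only the L copy was counted for rps7, rps10 and rps20. The genes run from fau with a mean of 5892 to rps21 with a mean of 170, and NPC and IN points are mixed in every row.

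At the bottom stood rps29, a small zinc-binding protein of the subunit's head, at 795 ± 380 CPM per kb. Below it were rps20, also of the head and counted from its L copy alone, at 235 ± 124, and rps21 at 170 ± 87.4. Of the 22 pairs of neighbours in this order, 20 switched places in at least 1 library. An exception was rps26, which was above rps15 in all 6 libraries. On the scale of mRNA reads per kb of exonic length rps4x at 2264, fau at 1553 and rps13 at 1500 CPM per kb were among the highest, and among the lowest were rps29 at 237, rps20 at 109 and rps21 at 73.8. Both scales therefore placed rps29, rps20 and rps21 last. With TopHat2 reads rps21 was not among the lowest.

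No small-subunit copy passed a test of IN against NPC. All 43 copies had enough reads to be tested among 19158 genes, and 0 of 43 passed an adjusted p of 0.05 in edgeR's quasi-likelihood test (Benjamini-Hochberg), where 0% of all genes passed. At an unadjusted p under 0.05 the count was again 0 of 43, against 3.43% of all genes, and 0 of 43 copies had groups without overlap, against 8.76%. DESeq2 called 0 of 43 (0.459% of all genes) and limma-voom 0 of 43 (0%), and at an unadjusted p under 0.05 both again had 0 of 43, against 6.68% and 3.29% of all genes. Fitted log2 fold changes (IN minus NPC) were below 0 for 25 copies and above 0 for 18, while 51% of all genes were below 0, and with upper-quartile scaling 21 of 43 were below 0. Their median was -0.08, beside -0.03 over all genes, and they ran from -0.88 for rps20.L to 1.22 for rps21.L. The balance turned on single libraries: 14 of 43 were below 0 without NPC 2 (median 0.30, over all genes 0.09) and 16 without IN 1 (median 0.11, over all genes -0.10), but 32 without NPC 1 (median -0.29, over all genes 0.07).

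These copies were measured more tightly than the median gene, but they also had more reads than most genes. A mean of at least 50 CPM was reached by 40 of the 43 copies and by 4517 genes in all, while 19158 genes were tested. The part of read depth in the tightness was not tested. Their median standard error was 0.53 on the log2 scale, against 1.41 over all genes, and the median 95% interval reached 1.11 log2 units to each side, against 2.94. The biological coefficient of variation, edgeR's estimate of the relative spread between libraries beyond counting error, was 54.9% at the median member and 110% at the median gene. The large-subunit copies were close to them, with a median standard error of 0.57 and a coefficient of 56.8%. Differences smaller than these half-widths could go undetected with 3 libraries a group. The intervals are not adjusted for the number of genes tested, so larger differences could also miss the adjusted threshold.

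**Figure D2:**
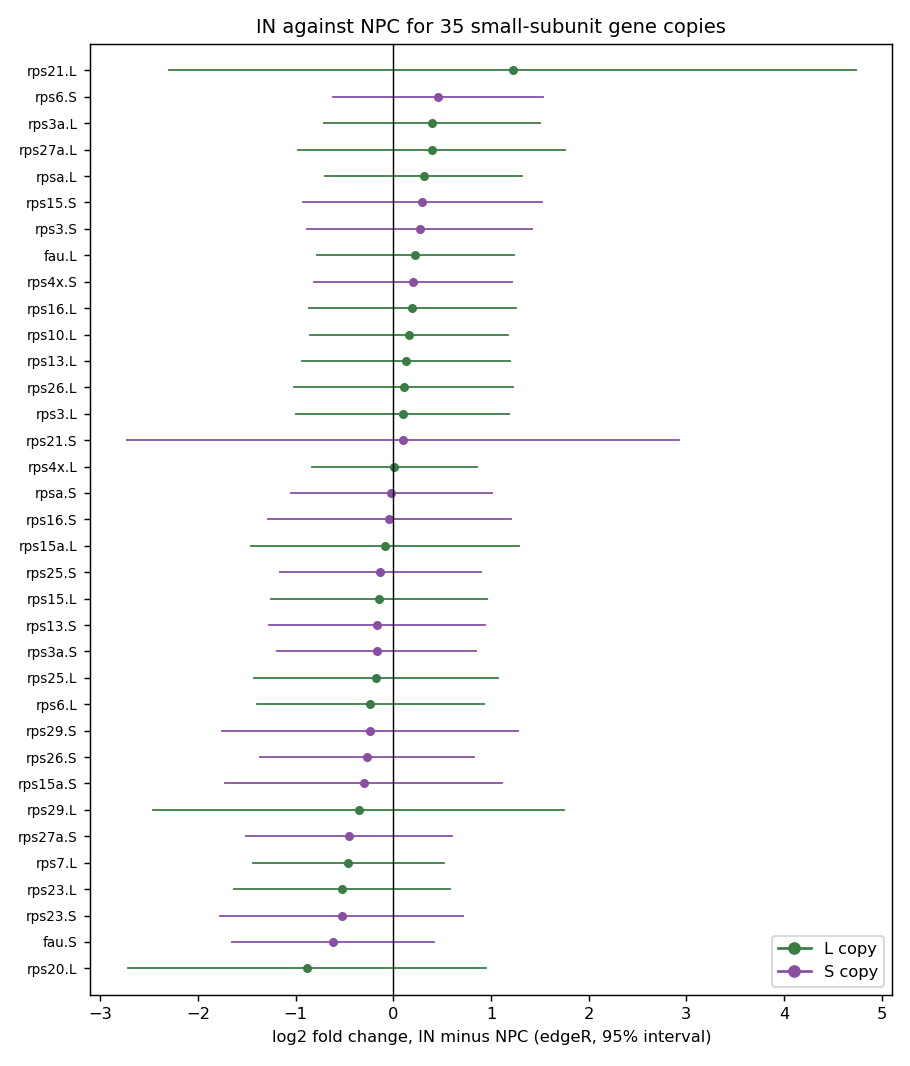
Log2 fold change of IN against NPC for 35 small-subunit copies with 95% intervals from edgeR, L copies in green and S copies in purple. Every interval includes 0, and the widest, for rps21.L, rests on 12 to 197 reads per library.

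The copies of lowest p all had lower fitted levels in IN, and none passed the test: the edgeR adjusted p was 1.00 for each of the 6. For fau.S there were 8929, 13045 and 3538 reads for NPC and 5245, 9337 and 4921 for IN, with a log2 fold change of -0.62 (SE 0.50, 95% interval -1.65 to 0.42). The third NPC library was the lowest of all 6, and without NPC 2 the estimate was -0.08, while it was -0.97 without NPC 3 or without IN 2. For rps20.L, 222, 482 and 1077 reads for NPC and 242, 273 and 656 for IN gave -0.88 (SE 0.88, interval -2.72 to 0.95), with NPC 3 and IN 3 the highest of their groups. Without NPC 3 the rps20.L estimate was -0.08, and without IN 3 it was -1.50. For rps23.L, a protein of the decoding centre, 1955, 3253 and 2091 reads for NPC and 1373, 2827 and 1811 for IN gave -0.53 (SE 0.53, interval -1.63 to 0.58). For rps7.L, 3963, 7846 and 6771 reads for NPC and 4225, 6961 and 5007 for IN gave -0.46 (SE 0.47, interval -1.44 to 0.52). With a library left out the estimate ran from -0.21 (without NPC 2) to -0.86 (without IN 2) for rps23.L and from -0.22 (without NPC 2) to -0.76 (without NPC 1) for rps7.L. The rps23.L and rps7.L genes, like rps27a.L, overlap another annotated gene on the opposite strand, so without a stated strand setting their reads may include some of that gene.

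The genes with a further role were compared on the added reads of both copies. This sum does not depend on which copy a counted read was given to, but it misses any read left uncounted for matching both. Over 10500 symbols tested this way, 0 of 23 small-subunit genes passed edgeR's test (0% of all symbols), 0 of 23 had an unadjusted p under 0.05 (3.41% of all symbols), and 0 of 23 had groups without overlap (8.73% of all symbols). The fitted change was below 0 in 14 genes and above 0 in 9 (51.6% of all symbols were below 0), with a median of -0.13 beside -0.04 over all symbols. For rpsa the summed levels were 594, 852 and 558 CPM for NPC and 558, 711 and 929 for IN, a log2 fold change of 0.14 (SE 0.40, 95% interval -0.70 to 0.98). For rps6 they were 334, 834 and 458 CPM for NPC and 365, 686 and 692 for IN, a change of 0.11 (SE 0.45, interval -0.82 to 1.04). The groups overlapped for both genes. For fau, 1263, 2145 and 709 CPM for NPC and 841, 1474 and 933 for IN gave -0.33 (SE 0.43, interval -1.23 to 0.56). For rps27a, 380, 516 and 486 CPM for NPC and 242, 418 and 516 for IN gave -0.23 (SE 0.44, interval -1.14 to 0.68). The lowest p among the summed genes was that of rps23 (log2 fold change -0.52, SE 0.45, edgeR adjusted p = 0.999).

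Reads were split almost evenly between the subgenomes when all pairs were added, but single genes leaned to either side. The L copies took 48.6%, 47.9% and 52.5% of the reads of the 20 pairs for NPC and 50.9%, 49.4% and 50.01% for IN. The mean was 49.9% ± 1.66 (SD, n = 6), beside 51.5% ± 0.798 over all L and S pairs of the annotation. Without rps4x, the gene with the most reads, it was 46.4% ± 2.55. Gene by gene the mean L share was lowest for rps27a, at 26.9%, and reached 67.2% for rps4x, with a median of 46.6% over the 20 pairs, against a median of 54.2% over the 7420 pairs tested. The S copy had more reads on average in 12 pairs and the L copy in 8. In 10 pairs the same copy had more reads in all 6 libraries, among them L for rps15, rps16, rps23, rps3 and rps4x, and S for fau, rps27a and rps29. These are reads before any correction for length, and such pairs were not counted over all pairs. For rps23 the L copy was higher in 0 of the 6 libraries per exonic length and in 6 per coding length.

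**Figure D3:**
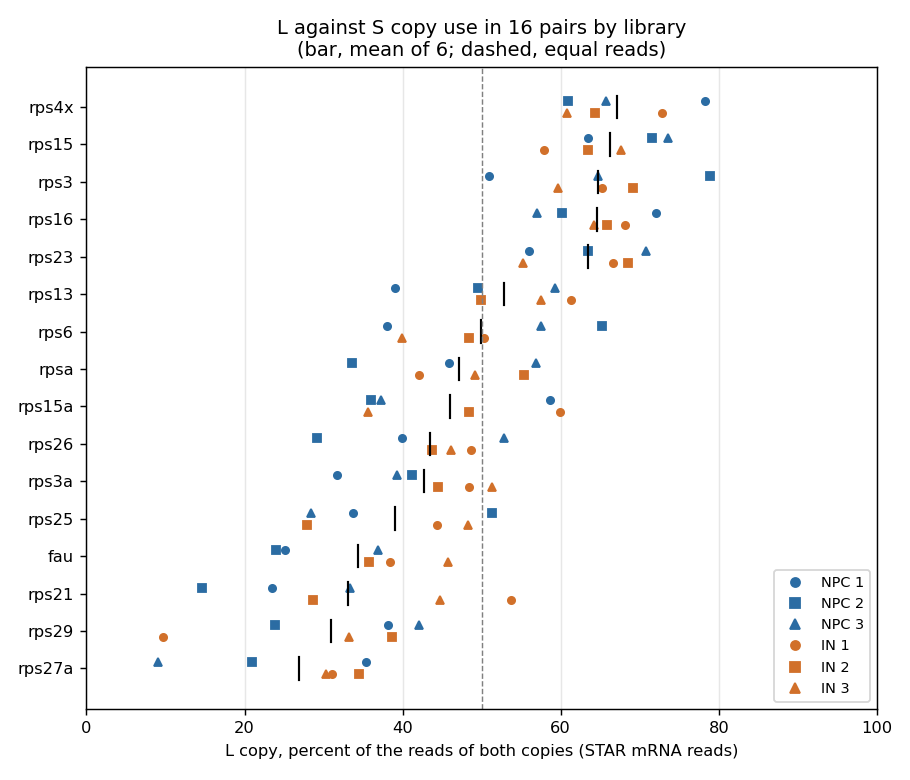
Percent of the reads of 16 L and S pairs that came from the L copy, with 1 point per library, a bar at the mean of the 6 libraries and a dashed line at equal reads. The means run from 26.9% for rps27a to 67.2% for rps4x, and the points of rps21 are spread from 14.6% in NPC 2 to 53.8% in IN 1.

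A longer transcript yields more reads, so L and S levels were compared per kb, first with mRNA reads over the exonic length of each copy. With edgeR's quasi-likelihood test, 6 of 20 pairs differed at an adjusted p under 0.05, where 14% of all 7420 pairs did. The L copy was higher in 4 (9.3% of all pairs) and the S copy in 2 (4.66% of all pairs). With coding reads over coding length 7 of 20 differed, against 10.8% of 6518 pairs, with L higher in 4 (7.46% of all pairs) and S higher in 3 (3.38% of all pairs). Only rps4x, rps15 and rps3 with L higher and rps27a with S higher passed on both scales, 4 of 20 against 7.91% of the 6502 pairs tested on both. The fitted direction turned between the scales in 9 of the 20 pairs. Such a ratio assumes that the annotated lengths are those of the RNA in these cells, and the sources used here do not say how reads that match both copies were counted. With limma on the log ratios of the 6 libraries 1 of 20 pairs passed, rps4x, against 11.8% of all pairs, so the share of members called was above that of all pairs with edgeR and below it with limma.

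The L copy of rps4x, on chromosome 8L at 14363437 to 14368583 (minus strand, build 9.1), had 13846, 10488 and 12608 reads for NPC and 10337, 18891 and 14228 for IN. The S copy, on 8S at 47187400 to 47200969 (minus strand), had 3847, 6722 and 6557 reads for NPC and 3855, 10482 and 9167 for IN. The L copy was thus ahead in every library, with 60.8% to 78.3% of the reads. Per exonic length its log2 ratio to S was 2.63 (SE 0.20, edgeR adjusted p = 6.18e-12), and per coding length it was 1.14 (SE 0.18, edgeR adjusted p = 4.52e-08), a 6.196-fold and a 2.20-fold excess. The exons of rps4x.L span 756 bases and are all coding, while those of rps4x.S span 2256 bases, of which 792 are coding and 1178 are annotated as 3' untranslated. Coding reads of rps4x.S came to 99.1% of its mRNA reads.

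For rps15, a protein of the head of the subunit, the L copy had 1625, 3937 and 1822 reads for NPC and 2099, 2581 and 3283 for IN. The S copy had 938, 1568 and 654 for NPC and 1529, 1487 and 1574 for IN. L was ahead in all 6 libraries, and its log2 ratio was 1.44 per exonic length (SE 0.32, edgeR adjusted p = 0.00169) and 1.19 per coding length (SE 0.35, adjusted p = 0.0112). For rps3, which lines the entry of the mRNA channel, L had 1539, 3935 and 4245 reads for NPC and 2734, 5260 and 4576 for IN. The S copy had 1484, 1052 and 2311 for NPC and 1456, 2349 and 3100 for IN. Its L copy was near parity in NPC 1 and ahead elsewhere, with a log2 ratio of 0.85 per exonic length (SE 0.29, edgeR adjusted p = 0.0418). The call held without NPC 1 and was lost without any other library: the edgeR adjusted p was 0.126 without NPC 2, 0.0796 without NPC 3, 0.0758 without IN 1, 0.129 without IN 2 and 0.0668 without IN 3. In those fits the log2 ratio of rps3 lay between 0.66 and 0.92. The call was also lost when only pairs with at least 10 reads per copy were tested (0.85, edgeR adjusted p = 0.0622).

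The ubiquitin fusion gene rps27a leaned the other way. Its L copy, on chromosome 5L at 2072635 to 2075739 (minus strand), had 1268, 862 and 349 reads for NPC and 763, 1420 and 1518 for IN. Its S copy, on 5S at 25351358 to 25357070 (plus strand), had 2319, 3264 and 3492 for NPC and 1691, 2697 and 3494 for IN. S was ahead in all 6 libraries, most of all in NPC 3, where L took 9.1% of the reads. The log2 ratio of L to S was -1.35 per exonic length (SE 0.35, edgeR adjusted p = 0.00801) and -1.52 per coding length (SE 0.36, adjusted p = 0.000819), so the S copy was 2.55-fold and 2.86-fold higher. Without NPC 3 the exonic value was -1.02 with an edgeR adjusted p of 0.0543. For rps3a, which lies near the exit of the mRNA channel, L had 1201, 2959 and 2782 reads for NPC and 2491, 3589 and 4927 for IN, and S had 2591, 4226 and 4308 for NPC and 2659, 4471 and 4667 for IN. S was ahead by reads in 5 libraries, and the log2 ratio was -0.83 per exonic length (SE 0.26, edgeR adjusted p = 0.0257). The call was lost without NPC 1 (edgeR adjusted p = 0.112), NPC 3 (0.0706) or IN 2 (0.0639), and per coding length the ratio was -0.44 (SE 0.27, adjusted p = 0.343). With NPC 3 left out, 3 of the 20 pairs remained past the threshold, rps4x, rps15 and rps25, against 10.5% of all pairs.

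The pair rps25, known in human cells for its need in initiation at some viral internal ribosome entry sites, changed direction with the length used. The L copy, on chromosome 7L at 73979427 to 73984183 (minus strand), had 1263, 4004 and 1135 reads for NPC and 1720, 1533 and 3513 for IN. The S copy, on Scaffold80 at 237139 to 245382 (plus strand), had 2479, 3798 and 2855 for NPC and 2158, 3949 and 3771 for IN. S had more reads in 5 of 6 libraries, yet per exonic length L was higher, with a log2 ratio of 1.44 (SE 0.30, edgeR adjusted p = 0.000781). Per coding length, 378 bases in both copies, the ratio was -0.61 (SE 0.31, adjusted p = 0.217). The exons of rps25.S span 4415 bases, 4019 of them annotated as 3' untranslated. Its coding reads, counted over 378 bases, came to 92.8% of its mRNA reads. The exons of rps25.L span 1024 bases, and its coding reads came to 97.7% of its mRNA reads.

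**Figure D4:**
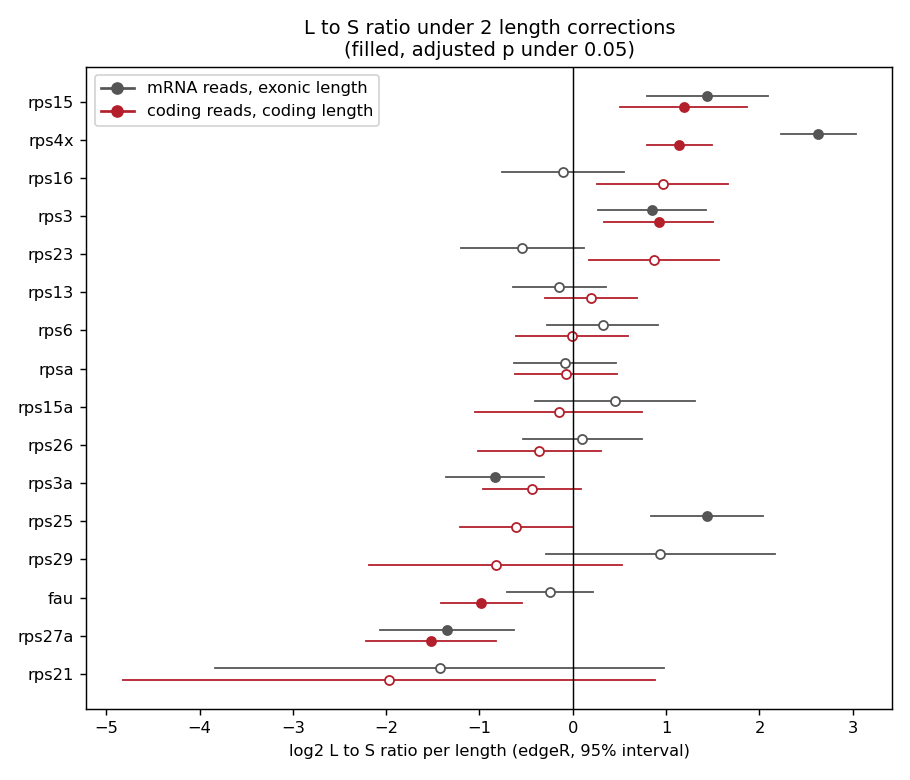
Fitted log2 ratio of L to S for 16 pairs with 95% intervals from edgeR, per exonic length of mRNA reads (grey) and per coding length of coding reads (red), with filled points at an adjusted p under 0.05. Above 0 the L copy is higher: rps4x, rps15 and rps3 are filled and above 0 on both scales, rps27a is filled and below 0 on both, and rps25 changes sides.

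The gene fau passed on the coding scale but not on the exonic one. For fau, with L on chromosome 4L at 21762588 to 21767207 (plus strand) and S on 4S at 3441388 to 3446433 (minus strand), L had 2993, 4119 and 2066 reads for NPC and 3267, 5192 and 4143 for IN. The S copy, whose reads are given above, was ahead in all 6 libraries. The log2 ratio of fau was -0.25 per exonic length (SE 0.23, edgeR adjusted p = 0.542) and -0.98 per coding length (SE 0.22, adjusted p = 0.000466).

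Other pairs stayed near parity per exonic length. For rpsa, with L on chromosome 4L at 107254894 to 107261688 and S on 4S at 87978509 to 87984597 (both minus strand), L had 2574, 2288 and 2509 reads for NPC and 2377, 3882 and 4439 for IN, and S had 3037, 4525 and 1901 for NPC and 3274, 3128 and 4581 for IN. The lead changed between libraries, and the log2 ratio was -0.08 per exonic length (95% interval -0.63 to 0.46) and -0.07 per coding length (-0.62 to 0.47), so here the scales gave nearly the same value. For rps6, with L on chromosome 1L at 116954238 to 116960693 and S on 1S at 96530662 to 96543782 (both minus strand), L had 1202, 4351 and 2081 reads for NPC and 1855, 3277 and 2687 for IN. The S copy had 1954, 2324 and 1538 for NPC and 1837, 3487 and 4033 for IN. L led in 3 of the 6 libraries, and the log2 ratio was 0.32 (interval -0.28 to 0.92) per exonic and -0.01 (-0.61 to 0.60) per coding length. For rps26, which contacts mRNA near the exit of its channel, L had 1276, 1405 and 1879 reads for NPC and 1524, 1979 and 2327 for IN, and S had 1915, 3413 and 1679 for NPC and 1610, 2543 and 2723 for IN. The log2 ratio was 0.10 (interval -0.53 to 0.74) per exonic and -0.36 (-1.02 to 0.30) per coding length. For rps16, whose tail reaches the tRNA in the peptidyl site, L had 2030, 1809 and 1954 reads for NPC and 1873, 3402 and 2494 for IN, and S had 785, 1200 and 1474 for NPC and 874, 1761 and 1388 for IN. L had more reads in all 6 libraries, but its exons span 1146 bases against 580, and the log2 ratio was -0.11 (interval -0.76 to 0.55) per exonic and 0.96 (0.26 to 1.67, edgeR adjusted p = 0.0619) per coding length.

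Among the genes high or low in level, rps13 had L reads of 2195, 5886 and 3220 for NPC and 3120, 5959 and 5777 for IN, and S reads of 3434, 5991 and 2208 for NPC and 1969, 5964 and 4258 for IN. The L share of rps13 was 39.0%, 49.6% and 59.3% for NPC and 61.3%, 49.98% and 57.6% for IN, so the lead changed within each group. For rps29 the L copy had 453, 379 and 235 reads for NPC and 81, 621 and 259 for IN, and the S copy 734, 1208 and 324 for NPC and 752, 986 and 521 for IN. The 9.7% L share of rps29 in IN 1 was the lowest of its 6 values. Over all 20 pairs the log2 ratio per exonic length had a median SD of 0.53 between libraries. The value was 0.51 over the large-subunit pairs and 2.32 over all pairs. The same copy was higher per exonic length in all 6 libraries in 7 of 20 pairs (20.1% of all pairs), and per coding length in 10 of 20 (15.5% of all pairs). Among the large-subunit pairs the counts were 18 of 27 and 13 of 27. In the large subunit, 13 of 27 pairs passed edgeR's test per exonic length (14% of all pairs). L was higher in 10 of them (9.3% of all pairs) and S in 3 (4.66% of all pairs). Per coding length 8 of 27 passed (10.8% of all pairs), so both subunits were above the share of all pairs with edgeR.

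The split between copies did not differ detectably between IN and NPC. With edgeR's test of the copy by group term, 0 of 20 pairs passed after Benjamini-Hochberg adjustment, where 0% of the 7420 pairs did, and 0 of 20 had an unadjusted p under 0.05, against 3.03%. Per coding length the counts were 0 of 20 (0.046% of 6518 pairs) and 0 of 20 (2.78%), and with limma 0 of 20 passed at either threshold (0% and 4.72% of the 7420 pairs). The lowest p was that of fau, whose L copy took 25.1%, 24.0% and 36.9% of reads for NPC and 38.4%, 35.7% and 45.7% for IN. The groups overlapped by a single pair of values, and the change in log2 ratio was 0.75 (SE 0.52, 95% interval -0.26 to 1.76, edgeR adjusted p = 1.00). For rps27a the L share was 35.3%, 20.9% and 9.1% for NPC and 31.1%, 34.5% and 30.3% for IN, a change of 0.94 (SE 0.73, interval -0.50 to 2.37) that fell to 0.30 without NPC 3. Of the 20 pairs, 3 had L shares without overlap between groups, against 7.61% of all pairs. Among them rps3a was higher for IN (37.4% ± 5.02 for NPC and 48.1% ± 3.42 for IN, SD, n = 3). An exact permutation test of 3 against 3 cannot go below p = 0.1.

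The same reads aligned with TopHat2 gave a different picture for a single gene, rps21, named here after its values were seen. Its L copy, on chromosome 9_10L at 14690754 to 14702121 (plus strand), had 76, 10 and 44 STAR coding reads for NPC and 112, 23 and 25 for IN. With TopHat2 it had 1575, 1949 and 2279 reads for NPC and 647, 1340 and 2195 for IN, more in every library. Its S copy, on 9_10S at 13287118 to 13291638 (plus strand), had 923 reads in all with STAR and 1016 with TopHat2. The L share of rps21 was therefore 23.9% of the STAR and 90.8% of the TopHat2 coding reads. The log2 ratio of L to S per coding length was -1.97 with STAR (SE 1.45, edgeR adjusted p = 0.456) and 3.33 with TopHat2 (edgeR adjusted p = 2.05e-08). The level of rps21 moved from 170 CPM per coding kb, rank 23 of 23, to 1722, rank 10. Of 17286 genes with at least 100 reads in either coding table, 3 (0.0174%) had at least 10 times as many reads with TopHat2 as with STAR, and rps21.L was among them. Neither copy of rps21 overlaps another annotated gene. What sets the tables apart at this gene was not tested.

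For the other 19 pairs the aligners gave close values. Single copies kept 78.1% (rps6.S) to 104% (rps6.L) of their STAR reads, and the members together 87.2%, against 84.5% over all genes. The L share of rps6 moved from 50.3% to 57.3%, and that of each other pair by at most 2.10 percentage points. With TopHat2, 8 of 20 pairs passed edgeR's test per coding length, against 10.3% of 6408 pairs: the 7 of the STAR coding reads and rps21.

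**Figure D5:**
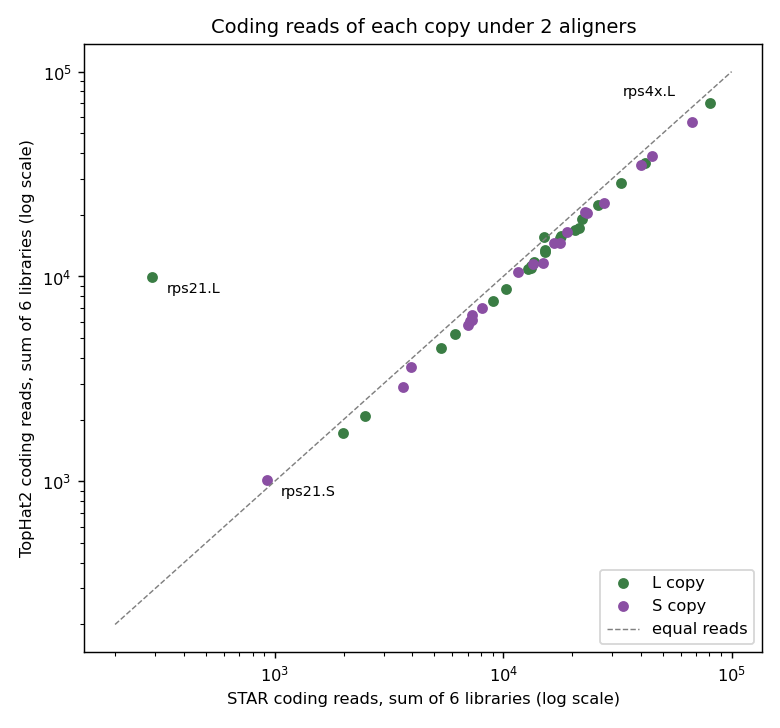
Coding reads of each small-subunit copy summed over the 6 libraries, with STAR on the x axis and TopHat2 on the y axis (both log scales), L copies in green, S copies in purple, and a dashed line at equal reads. Most points lie just under the line, rps6.L and rps21.S lie slightly above it, and rps21.L lies far above it with 290 STAR and 9985 TopHat2 reads.

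Genes that build, regulate or accompany the small subunit were not called between IN and NPC by edgeR or limma-voom. DESeq2 called 1 of them, mrps26.L, beside 0.459% of all genes. Among factors that process and assemble the small subunit, 0 of 80 tested copies passed edgeR's adjusted test, and the median log2 fold change was -0.19. An unadjusted p under 0.05 was found for 2 (2.5% of the list, against 3.43% of all genes). Groups did not overlap for 5 of 80, against 8.76% of all genes. The lowest p was that of nob1.S, the endonuclease that matures the 3' end of 18S rRNA, with 1, 68 and 12 reads for NPC and 335, 713 and 415 for IN (log2 fold change 3.87, SE 1.44, edgeR adjusted p = 1.00). Every IN library was above every NPC library for nob1.S. For bysl.S, an assembly factor, 827 reads in NPC 2 stood alone, against 4 and 51 in the other NPC libraries and 6, 40 and 33 for IN (edgeR adjusted p = 1.00).

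Of the large-subunit copies 0 of 60 passed, also at an unadjusted p under 0.05, with 36 below 0 and 24 above and a median log2 fold change of -0.17. The mitochondrial small subunit, which serves the separate ribosome of mitochondria, summed to 821 ± 243 CPM for NPC and 530 ± 125 for IN (SD, n = 3). Its sum, which was not tested, was 609, 1086 and 768 CPM for NPC and 387, 587 and 616 for IN. The groups thus overlapped for its sum. Of its copies 0 of 37 passed edgeR's test, and 2 had an unadjusted p under 0.05 (5.41% of the list, against 3.43% of all genes). Its lowest p were those of mrps26.L, with 92, 803 and 606 reads for NPC and 53, 63 and 10 for IN (log2 fold change -3.88, SE 1.25), and mrps2.S, with 5, 0 and 2 reads for NPC and 118, 100 and 19 for IN (log2 fold change 4.84, SE 2.32). Neither gene had overlapping groups, as was so for 5 of the 37 copies and for 8.76% of all genes. Both had an edgeR adjusted p of 1.00, while DESeq2 gave mrps26.L an adjusted p of 0.0392. Among regulators of the translation of oligopyrimidine-tract mRNAs and the S6 kinases 0 of 35 passed, also at an unadjusted p under 0.05. The lowest p there belonged to the mTOR inhibitors tsc2.S, with 135, 723 and 0 reads for NPC and 9, 12 and 101 for IN (log2 fold change -3.06, SE 1.79), and tsc1.S, with 433, 63 and 289 and 604, 1420 and 337 (1.40, SE 0.92). Of 33 copies for proteins that bind the small subunit, such as initiation factors, 0 passed, also at an unadjusted p under 0.05. The lowest p were those of rps19bp1.L, with 545, 19 and 183 reads for NPC and 57, 11 and 10 for IN (log2 fold change -3.41, SE 1.67), and of eif1.L, with 59, 7 and 0 and 366, 480 and 3 (3.57, SE 1.91).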

How the data were processed

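The authors deposited whole-number read counts, not normalized, in 3 tables. Per the sheet names these were STAR alignments over mRNA, STAR over coding sequence and TopHat2 over coding sequence. Rows were genes in the mRNA table and transcripts in the coding tables. Coding reads were added over the transcripts of a gene, and its coding length was that of its longest coding sequence. Per the labels' protocols, libraries from total RNA gave single-end reads, 100 bases long. The submitters' processing notes name FastQC, Trimmomatic, HTSeq and DESeq2 besides. The sources used here give no versions, strand setting or rule for reads with several matches. Columns were matched to samples by letter and number, with D read as dark (NPC) and L as light (IN). Names, lengths and 1-based coordinates came from the deposited annotation (build 9.1, version 1.8.3.1 per the file headers, 1.8.3.2 per its name).

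The STAR mRNA counts were tested with edgeR 4.0.16 (R 4.3.3; filterByExpr, TMM, robust quasi-likelihood test, 2-sided, Benjamini-Hochberg over all genes, threshold 0.05). L against S was tested in the same way on 6 libraries with L and S columns, with library as a term and library size and copy length as offsets, and the difference between groups as the copy by group term. Alternatives were other scalings, filters, DESeq2 1.42.0, limma 3.58.1, the coding tables, the replicate number as a block and each library left out. The code was tested on simulated counts. No molecular identifiers are described, so reads are not independent molecules and intervals from counting alone would be too narrow.

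The members and gene lists were chosen with earlier results of these data known. Named in full were rpsa, fau, rps6 and rps27a, the 4 highest and 4 lowest genes per exonic kb, the 6 copies of lowest p, pairs past the threshold, the 4 pairs nearest 0, the 3 lowest p for a change in copy use, and up to 2 genes of lowest p per list; others are marked where they appear. The values of 4 genes of the set are not reported here; they stayed in the counts, sums and medians.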

Additional observations from a re-analysis of the deposited data

How the results depend on the processing

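No setting called a small-subunit copy or summed gene between IN and NPC, edgeR, DESeq2, limma-voom, the coding tables, the block and each left-out library included. Over all genes the count of calls was 0 with edgeR, 16 with no filter and 88 with DESeq2, and 0 to 2 with a library left out. Over symbols it was 40 with DESeq2 and 0 to 2 with a library left out. Among the summed genes followed by name, the fitted direction turned for rps21, with -0.060 on STAR coding and -0.70 on TopHat2 coding reads. With a library left out it turned for rps6 (-0.14 to 0.54), fau (-0.65 to 0.12), rps27a (-0.47 to 0.014) and rpsa (-0.062 to 0.34), but not for rps20, rps21 or rps23. Other summed genes turned as well: of 23, 14 were below 0 in the main fit, 4 without NPC 2, 8 without IN 1 and 20 without NPC 1.

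Unequal L and S use was called in 1036 of 7420 pairs (14%), in 506 of 6350 with at least 10 reads per copy (7.97%), in 660 of 6408 with TopHat2 (10.3%), in 1249 of 7420 with no length offset (16.8%), and in 530 of 3287 with a filter at a mean of 50 CPM (16.1%), which was added after the data were seen. Leaving out a library gave 778 to 963 pairs, 10.1% to 12.4% of those tested. Of the 20 small-subunit pairs 1 was called by limma, against 11.8% of all pairs, and 3 to 5 with a library left out. The directions that turned did so with no length offset for rps13 (0.16), rps15a (-0.24), rps16 (0.88), rps23 (0.81), rps25 (-0.67), rps26 (-0.39), rps29 (-1.25) and rps6 (-0.0054). On STAR coding reads they were rps13 (0.19), rps15a (-0.15), rps16 (0.96), rps23 (0.87), rps25 (-0.61), rps26 (-0.36), rps29 (-0.83) and rps6 (-0.0084). On TopHat2 reads they were rps13 (0.17), rps15a (-0.14), rps16 (0.92), rps21 (3.33), rps23 (0.89), rps25 (-0.58), rps26 (-0.37) and rps29 (-0.69). By construction these settings change only the lengths or the reads. With a library left out rps13 ran from -0.24 to 0.017, rps26 from -0.0091 to 0.28 and rpsa from -0.20 to 0.077. A difference of copy use between groups was called in 0 pairs, in 3 with STAR coding and 3 with TopHat2 reads, and in 0 to 3 with a library left out, none of them small-subunit genes. The L share of small-subunit reads was 55.0% per exonic kb.

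Libraries of the same number deviated together weakly (correlations 0.130, 0.051 and 0.089), and every library correlated best with its own number. They were also alike in coding reads as a percent of mRNA reads: 45.1% and 45.9%, 55.1% and 54.0%, and 61.0% and 60.9%. The number may therefore mark a shared batch or pairing, which the sources used here do not state. The main tests left the number out, and a block by number was run beside them. With the replicate block edgeR called 0 genes, and 6 of 20 small-subunit pairs for L against S, where 13.9% of all pairs were called.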

Other observations

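Gene names just outside the naming rule were looked up as well. The gene named rps24.1 had 0 reads in every library. A pseudogene-type name, rps28p9, was present as both copies. Its L copy had 261, 295 and 674 reads for NPC and 508, 859 and 1366 for IN, or 49.9 ± 30.9 and 92.7 ± 45.5 CPM (SD, n = 3). Its S copy had 652, 1345 and 405 reads for NPC and 308, 413 and 1065 for IN, or 96.1 ± 63.0 and 60.7 ± 42.8 CPM. The copies had opposite signs, with log2 fold changes of 0.89 (SE 0.78) and -0.66 (SE 0.78), an edgeR adjusted p of 1.00 for each, and the groups overlapped for both.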
